A study of Caenorhabditis elegans with 2 samples.

Results

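Aminoacyl-tRNA synthetases join each amino acid to its tRNA, and so supply the charged tRNAs that ribosomes use. Most amino acids have a separate enzyme for the cytosol and for mitochondria, both encoded in the nucleus, while for some a single gene serves both places. The genes are usually active in all tissues, because every cell that makes protein needs them. In worms, many genes lie close behind another gene on the same strand and are transcribed together with it as an operon.

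The 33 genes described here are the protein-coding genes of the assembly WBcel235 whose symbol is one letter followed by ars and a number, out of 19973 nuclear protein-coding genes. They were grouped as 14 genes for cytosolic enzymes, 13 for mitochondrial enzymes and 6 whose amino acid has a single synthetase gene. The RefSeq product name of all 33 contained tRNA or transfer RNA. Synthetase genes with other names fall outside the rule, among them the valine gene glp-4 and the gene prx-10. For prx-10, RefSeq names both a peroxisome biogenesis factor and a mitochondrial tryptophan tRNA ligase as products. The pseudogene cars-2 was left out too, so cars-1 stands in the single-gene group.

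Binding of LSY-2, a zinc finger transcription factor known from neuronal asymmetry, was mapped by chromatin immunoprecipitation and sequencing (ChIP-seq) in whole L2 larvae of mixed sex. The strain was OP367, in which the transgene wgIs367 adds LSY-2 with a C-terminal GFP-FLAG tag to animals with the mutation unc-119(tm4063). There was 1 group with 2 biological replicates and no untagged or other control group among the peak lists. The labels do not give the copy number of the transgene or the tissues that express it, and whole-animal chromatin mixes all cells, so a peak does not show in which cells LSY-2 was bound.

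A gene counted as bound when the summit of a peak in the authors' optimal list lay between 1000 bp upstream and 200 bp downstream of its 5′ end. The optimal list held 6312 peaks, with the authors' scores between 58.0 and 20472 on a scale that the labels and files do not state. Relaxed lists, 1 for each replicate and 1 for both together, held 30000 peaks each and reached down to weak signal. No file held read counts, so the depth of the libraries is unknown. With 1 group of samples there was no comparison of conditions, and no test was made: the genes were proposed with earlier results of these data known, and genes are not replicates.

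LSY-2 peaks lay in the promoter windows of most synthetase genes. Of the 33 genes, 21 (63.6%) were bound, beside 19.2% of all protein-coding genes. With each peak given only to the nearest 5′ end, 14 (42.4%) were bound, beside 14.5%. With a window of 500 bp upstream to 100 bp downstream, 16 (48.5%) were bound, beside 15.2%. Cytosolic enzymes had a peak in 10 of 14 cases, mitochondrial enzymes in 7 of 13 and single-gene enzymes in 4 of 6. The 21 genes had 1 peak each and all 21 peaks were distinct. The bound genes were spread over all autosomes, and none of the 33 members lies on X, which holds 13.7% of protein-coding genes. On chromosome IV, singled out after its values were seen, all 8 members were bound, beside 17.8% of its protein-coding genes.

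**Figure D1:**
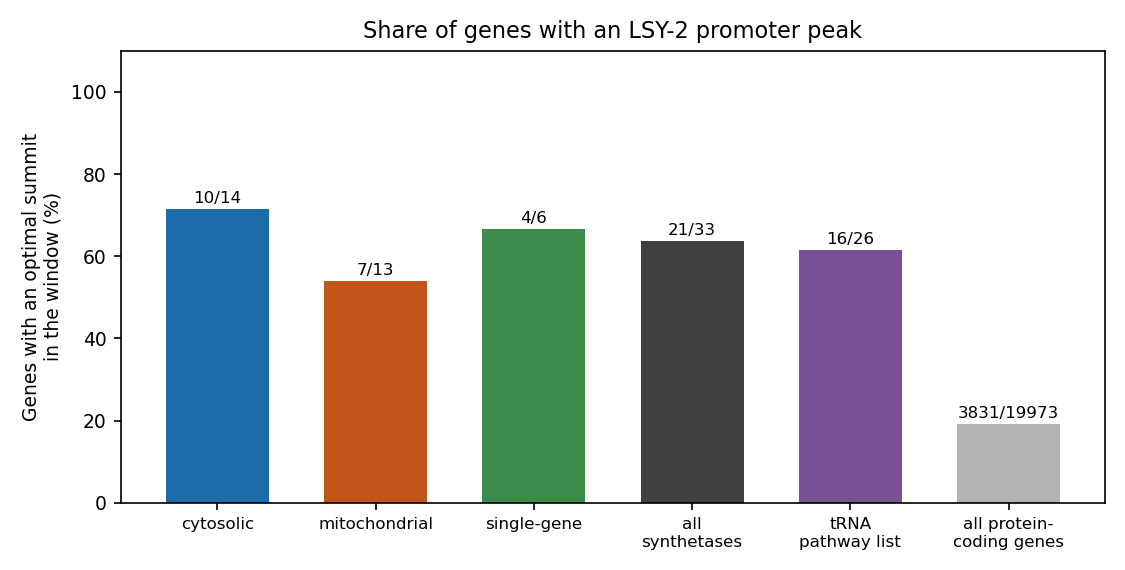
Share of genes with an optimal LSY-2 summit in the promoter window, in percent, with the count of bound genes over all genes of the group above each bar. The synthetase groups lie between 53.8% and 71.4% and the list of other tRNA pathway genes at 61.5%, while all protein-coding genes lie at 19.2%.

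The sequence at 5 of these peaks is shown first, because the peaks differ widely in base composition and in the short motifs they hold. Each line gives the 101 bases centred on the summit, read on the strand of the synthetase gene from WBcel235. The lines are peaks at genes for the mitochondrial glutamate enzyme, the cytosolic serine and methionine enzymes, the lysine enzyme and the mitochondrial alanine enzyme. The first 4 are among the 6 strongest of the 21, and the last is the peak with the most motifs. The peaks of nars-1, the strongest of all, and fars-1 also belong to these 6 but are not shown. Capitals mark the 6-mer ACCGTA, the 6-mer GAGAGA or the 6-mer ACGCAG, each on either strand. These 3 were chosen because they are already known to be frequent at the summits of this experiment.
ears-2, chrIV:390447-390547, minus strand: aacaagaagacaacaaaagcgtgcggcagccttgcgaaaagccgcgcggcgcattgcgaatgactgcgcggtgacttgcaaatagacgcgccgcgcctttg
sars-1, chrIV:10003491-10003591, plus strand: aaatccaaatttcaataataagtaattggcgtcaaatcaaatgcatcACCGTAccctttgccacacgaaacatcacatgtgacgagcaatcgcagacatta
mars-1, chrIV:11635756-11635856, minus strand: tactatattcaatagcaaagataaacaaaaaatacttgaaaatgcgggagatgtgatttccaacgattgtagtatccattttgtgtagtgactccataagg
kars-1, chrII:7072710-7072810, minus strand: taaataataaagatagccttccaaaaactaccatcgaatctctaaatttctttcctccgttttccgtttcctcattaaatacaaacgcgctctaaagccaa
aars-1, chrII:11464625-11464725, minus strand: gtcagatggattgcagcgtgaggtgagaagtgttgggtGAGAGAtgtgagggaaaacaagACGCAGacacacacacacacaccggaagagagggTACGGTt

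The ears-2 sequence was the richest in GC of all 21, with 58.4%, and held none of the 3 motifs. The mars-1 and kars-1 sequences had 32.7% and 34.7% GC and held none either. At nars-1, the strongest peak, GC was the lowest of all 21, with 28.7%, and at fars-1 it was 47.5%. Neither of these 2 had any of the motifs within 50 bp of the summit. The sars-1 sequence had ACCGTA close to the summit, and aars-1 was the member that held all 3 motifs. Across the 21 peaks the median GC was 42.6%, with a range of 28.7% to 58.4%, beside a median of 44.6% for all 3054 promoter peaks.

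Motif shares at synthetase peaks lay close to, or below, those of all promoter peaks. ACCGTA, in either direction and within 50 bp of the summit, was at 2 of the 21 peaks (9.52%), beside 8.81% of all promoter peaks. GAGAGA was at 4 (19.0%), beside 22.7%, and ACGCAG at 2 (9.52%), beside 16.2%. Within 200 bp of the summit, ACCGTA was at 14.3% of the synthetase peaks, beside 13.9% of all promoter peaks. In that wider stretch GAGAGA was at 33.3%, beside 43.9%, and ACGCAG at 9.52%, beside 26.4%. The GAGAGA peaks were those of rars-1, aars-1, mars-2 and hars-1, and the ACGCAG peaks those of aars-1 and dars-1. In aars-1 the GAGAGA copy and the ACGCAG copy do not overlap. A match describes the letters only and is no measure of binding to that motif.

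Among the cytosolic enzymes the strongest peak was that of nars-1, which encodes the asparagine enzyme. It lay on chromosome I at 7090152 to 7090668 and had a score of 1778, which ranked 134 in the optimal list. In replicate 1 its score was 932 (rank 142) and in replicate 2 it was 859 (rank 121). The summit lay between genes, 360 bp upstream of nars-1 and 318 bp upstream of its divergent neighbour nduf-6, so the peak is counted for both.

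Next was fars-1, for a phenylalanine enzyme subunit, with a score of 731 (rank 353), and 379 and 350 in replicates 1 and 2. That summit, in the peak at chromosome I 6215384 to 6215784, lay 890 bp upstream of fars-1 inside an exon of T08B2.15 that is outside its coding sequence. It was nearer to rbm-5, whose 5′ end was 152 bp away. The gene fars-1 also had an optimal peak inside an intron, 1833 bp downstream of its 5′ end, with a score of 238.

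The serine gene sars-1 had a score of 527 (rank 541), and 280 and 249 in replicates 1 and 2. Its peak lay on chromosome IV at 10003383 to 10003700, with the summit 185 bp upstream of sars-1 and 39 bp upstream of the divergent gene C47E12.2. The methionine gene mars-1, at chromosome IV 11635641 to 11636039, had a score of 353 (rank 912), with 174 in replicate 1 and 175 in replicate 2, and its summit lay 319 bp upstream. All 4 of these summits thus also lay upstream of a divergent gene, within its promoter window, which for mars-1 was F58B3.6. In replicates 1 and 2 the ranks were 142 and 121 for nars-1 and 387 and 331 for fars-1. For sars-1 they were 570 and 517, and for mars-1 1067 and 819.

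The other cytosolic peaks were weaker. The arginine gene rars-1 had a score of 231, the isoleucine gene iars-1 160, the alanine gene aars-2 154, the aspartate gene dars-1 125 and the second phenylalanine subunit gene fars-3 118. The leucine gene lars-1 had the weakest peak of all members, with a score of 66.6 (rank 5557), and 29.2 and 31.3 in replicates 1 and 2. The 2 phenylalanine subunits, which work together in 1 enzyme, thus had scores of 731 at fars-1 and 118 at fars-3. The fars-3 score was 44.4 in replicate 1 and 73.2 in replicate 2, a wider gap relative to its level than at the 4 strongest cytosolic peaks.

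The glutamate gene ears-1, the proline gene pars-1, the tryptophan gene wars-1 and the tyrosine gene yars-1 were the cytosolic members without an optimal summit in the window. For ears-1 the nearest optimal summit lay 3181 bp upstream, with a score of 1694, and no relaxed list held a summit in its window. The relaxed lists gave pars-1 a score of 11.5 in both replicates together and wars-1 a score of 8.88, which ranked 25421 and 29614 of 30000. Neither of these genes had a summit in the window in replicate 2.

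Of the mitochondrial enzymes, ears-2 had the strongest peak. Its product charges mitochondrial tRNAs with glutamate. The peak on chromosome IV at 390310 to 390676 had a score of 734 (rank 349), with 361 in replicate 1 and 370 in replicate 2. Its summit lay 29 bp upstream of ears-2 and 63 bp upstream of the divergent gene uncp-18, whose body begins within 91 bp.

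The mitochondrial valine gene vars-1 had a score of 239, with 116 and 123 in replicates 1 and 2, at chromosome V 8031247 to 8031466. The mitochondrial alanine gene aars-1 had a score of 200 (replicates 107 and 92.8) at chromosome II 11464561 to 11464780. The methionine gene mars-2 had a score of 192 (replicates 91.6 and 98.4) at chromosome I 14496497 to 14496678. These 3 genes lay within a narrow range of scores, and the order of vars-1 above aars-1 above mars-2 held in replicate 2 only in part, since mars-2 was above aars-1 there.

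The mitochondrial serine gene sars-2 had a score of 175 (replicates 97.3 and 77.9), at chromosome IV 4357367 to 4357594. The proline gene pars-2 had a score of 88.8 (replicates 34.7 and 47.3), at chromosome I 12486715 to 12487114. The tyrosine gene yars-2 had a score of 87.3 (replicates 39.6 and 46.4), at chromosome IV 4712415 to 4712814. These 2 weakest mitochondrial peaks were not separated by the replicates: yars-2 had the higher score in replicate 1 and pars-2 in replicate 2. The yars-2 summit lay 9 bp inside the gene, in an exon outside its coding sequence, and was the only member summit downstream of its 5′ end.

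Mitochondrial members without an optimal summit were dars-2, fars-2, iars-2, lars-2, nars-2 and rars-2, for aspartate, phenylalanine, isoleucine, leucine, asparagine and arginine. The relaxed list of both replicates together held summits in the windows of iars-2, rars-2 and fars-2, with scores of 33.9, 32.7 and 9.77. None of the relaxed lists held a summit in the windows of dars-2, lars-2 and nars-2, whose nearest optimal summits lay 11803, 5991 and 4683 bp upstream.

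Of the 6 single-gene enzymes, 4 were bound, with a median score of 155 beside 174 for all promoter peaks. The lysine gene kars-1 had a score of 310, with 175 and 137 in replicates 1 and 2, at chromosome II 7072624 to 7072999, 345 bp upstream of its 5′ end. The cysteine gene cars-1 had 220, with 97.2 and 123 in the replicates, from a summit 871 bp upstream. The glutamine gene qars-1 had 89.9 and the histidine gene hars-1 had 88.2.

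The glycine gene gars-1 and the threonine gene tars-1 were not bound by the rule, but both had an optimal peak in an intron. The gars-1 peak had a score of 77.2 and lay 520 bp downstream of the outermost 5′ end, which is 830 bp upstream of the start of a shorter transcript. The tars-1 peak had a score of 138 and lay 1008 bp downstream of the outermost 5′ end and 356 bp upstream of the start of another transcript, in a stretch where the gene kel-1 is annotated too. When the 5′ ends of all transcripts were used, both genes counted as bound and all 6 single-gene enzymes had a peak, beside 20.6% of all protein-coding genes under the same setting.

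**Figure D2:**
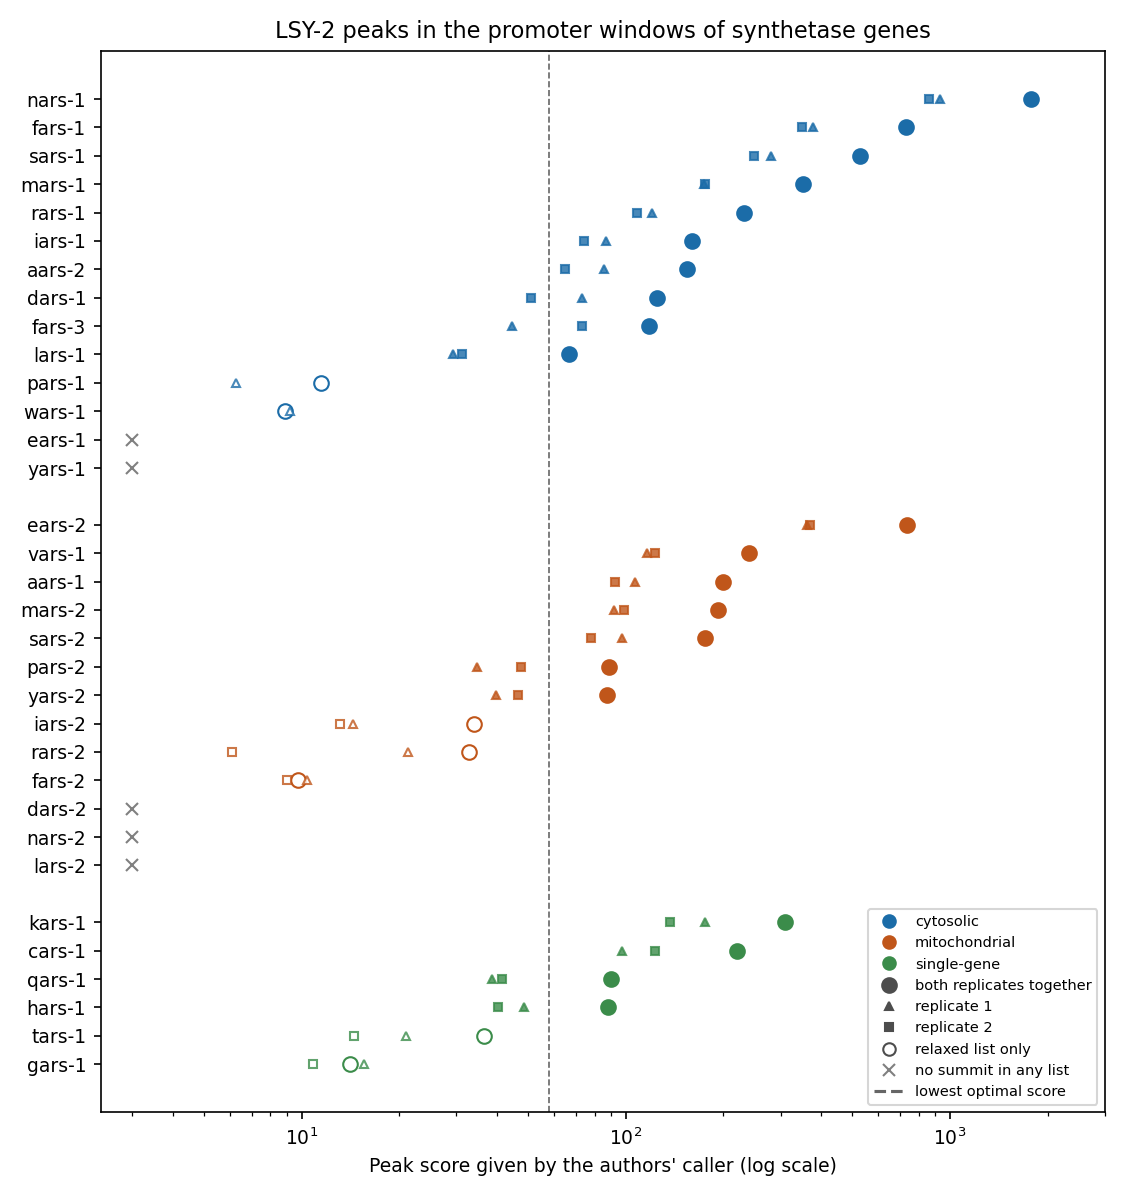
Peak scores of the 33 synthetase genes on a log scale, by compartment, with the score in both replicates together as circles, replicate 1 as triangles and replicate 2 as squares. Filled symbols are the 21 bound genes, open symbols are the strongest relaxed summit in the window of a gene that was not bound, crosses (drawn at an arbitrary position) mark the 5 genes with no summit in any list, and the dashed line is the lowest optimal score of 58.0. The bound genes range from 66.6 at lars-1 to 1778 at nars-1, and the strongest gene that was not bound is tars-1 at 36.4.

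In strength the synthetase peaks resembled other promoter peaks. Their median score was 192, with a range of 66.6 to 1778, beside a median of 174 for all 3054 promoter peaks. Of the 21 peaks, 12 were at or above that median and 4 (nars-1, ears-2, fars-1 and sars-1) were in the strongest 10% of the optimal list. The median score was 196 for the 10 cytosolic peaks, 192 for the 7 mitochondrial peaks and 155 for the 4 single-gene peaks, and the ranges overlapped. The weakest bound member was lars-1 with 66.6, beside a lowest score of 58.0 in the optimal list. The strongest members that were not bound lay well below it in the relaxed list of both replicates together. They were tars-1 with 36.4 (rank 9760), iars-2 with 33.9 (rank 10459) and rars-2 with 32.7 (rank 10798).

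The replicates gave similar orders. Of the 21 peaks, 19 (90.5%) had a summit within 200 bp among the 6312 strongest peaks of both replicates, beside 85.9% of all promoter peaks. The exceptions were lars-1, ranked 7476 in replicate 1, and pars-2, ranked 6315 there. The Spearman correlation of the replicates' scores was 0.96 across the 21 peaks and 0.91 across matched promoter peaks. Both describe peaks in the same 2 libraries, not independent samples. The optimal list was derived from these replicates, so its support in them is partly built in.

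Weak summits were also found at some genes that were not bound. Of the 12 genes without an optimal summit, 7 had a summit in the window in the relaxed list of both replicates together, beside 19.2% of all genes without an optimal summit. In both replicates' own relaxed lists such a summit was present for 5 of the 12, namely fars-2, gars-1, iars-2, rars-2 and tars-1, beside 14.6% of all genes without an optimal summit. The replicates' summits lay within 200 bp of each other for 3 of them (gars-1, iars-2 and tars-1), beside 12.0% of all such genes, and at fars-2 and rars-2 they were farther apart. The strongest summit was at tars-1 in both replicates together and in replicate 2, where its score was 14.5, while in replicate 1 it had 20.9 and rars-2 had 21.2. The other 5, ears-1, yars-1, dars-2, lars-2 and nars-2, had no summit in the window in any list.

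Summits lay close to the 5′ end at mitochondrial enzyme genes and farther upstream at cytosolic ones. All 7 mitochondrial summits were within 200 bp of the 5′ end, from 178 bp upstream at aars-1 to 9 bp downstream at yars-2, with a median of 29 bp upstream. The 10 cytosolic summits lay between 114 bp upstream at dars-1 and 975 bp upstream at rars-1, with a median of 299.5 bp, and 3 of them (dars-1, fars-3 and sars-1) were within 200 bp. However, 6 of these 10 were nearer to the 5′ end of another gene, and none of the mitochondrial ones was. Among the 6 were rars-1, fars-1 and iars-1, at 975, 890 and 577 bp. The cytosolic summits nearest to their own gene lay between 147 bp (fars-3) and 319 bp (mars-1) upstream. The 4 single-gene summits had a median of 442 bp upstream. Over all pairs of a gene and a summit in its window the median was 234 bp upstream, and 44.0% of summits lay within 200 bp. The difference between the groups was not tested, and the start of the nearest annotated transcript gave the same distance for all 21 genes.

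**Figure D3:**
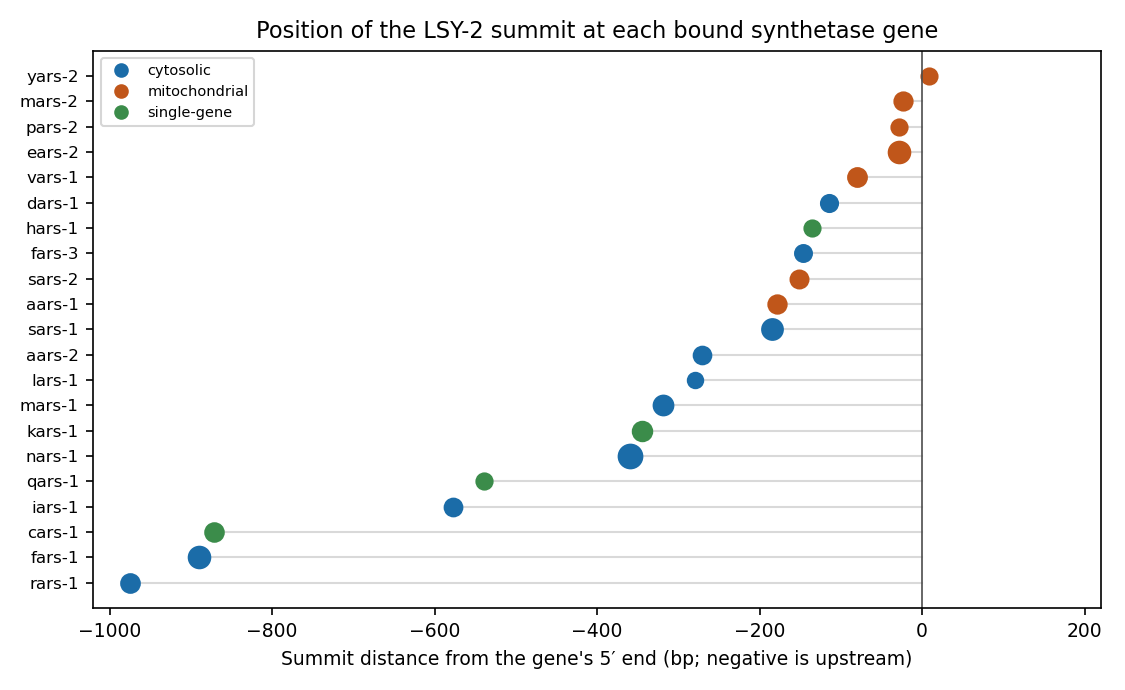
Position of the LSY-2 summit at each of the 21 bound synthetase genes, in bp from the gene's 5′ end, with negative values upstream. Colours give the compartment, and larger points have higher scores. The 7 mitochondrial genes sit between 178 bp upstream and 9 bp downstream, while cytosolic genes reach 975 bp upstream. Of the 10 cytosolic summits, 6 are nearer to the 5′ end of another gene.

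Many of these peaks lay between 2 genes. Of the 21 summits, 19 lay between genes and 2 in exons outside the coding sequence. The same share was not counted for all promoter peaks, so this count does not set the members apart. Of the bound members, 12 (57.1%) had a summit that also lay in the window of another protein-coding gene, beside 48.3% of all bound genes. The shared summit was nearer to the other gene in 7 of the 12 cases, and these were nars-1, fars-1, sars-1, rars-1, iars-1, dars-1 and qars-1. Of these, 6 are cytosolic and none is mitochondrial. How often a shared summit is nearer to the other gene was not counted over all bound genes. The neighbours included nduf-6 at nars-1, the RNA polymerase subunit gene rpb-8 at rars-1 and the transcription elongation gene ctr-9 at dars-1. For rars-1 the summit lay 975 bp upstream, beyond the body of rpb-8 and 144 bp upstream of the 5′ end of that gene. A shared peak cannot be assigned to either gene from its position. No tRNA, snoRNA or snRNA gene lay within 500 bp of any of the 21 summits. Among all promoter peaks, 1.44% had a tRNA gene, 1.74% a snoRNA gene and 0.622% an snRNA gene that near, so a count of 0 among 21 (taking 3 counts as the limit, up to 14.3%) does not set the members apart.

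Of the 12 members without a peak, 7 lay at most 200 bp behind another gene on the same strand, a count that depends on this limit. Of the 10 members whose upstream neighbour on the same strand ended at most 200 bp away, 3 (30.0%) were bound, beside 11.4% of all such genes. Of the other 23 members, 18 (78.3%) were bound, beside 20.2% of all other genes. This split by the upstream neighbour was chosen after the values were seen. The 3 bound genes were rars-1, vars-1 and yars-2. The gaps of vars-1 and yars-2 were 196 and 200 bp, at the edge of the limit, and the rars-1 summit lay upstream of its neighbour. The 7 that were not bound were dars-2, gars-1, iars-2, lars-2, nars-2, rars-2 and yars-1, with gaps of up to 131 bp, and iars-2 overlapped its neighbour by 72 bp.

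The upstream neighbour and the compartment went together. Of the mitochondrial genes 7 of 13 had such a neighbour, of the cytosolic genes 2 of 14, and of the single-gene enzymes 1 of 6. Away from such neighbours, 5 of 6 mitochondrial genes, 9 of 12 cytosolic genes and 4 of 5 single-gene enzymes were bound. The part of the neighbour in the difference between compartments was not tested.

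**Figure D4:**
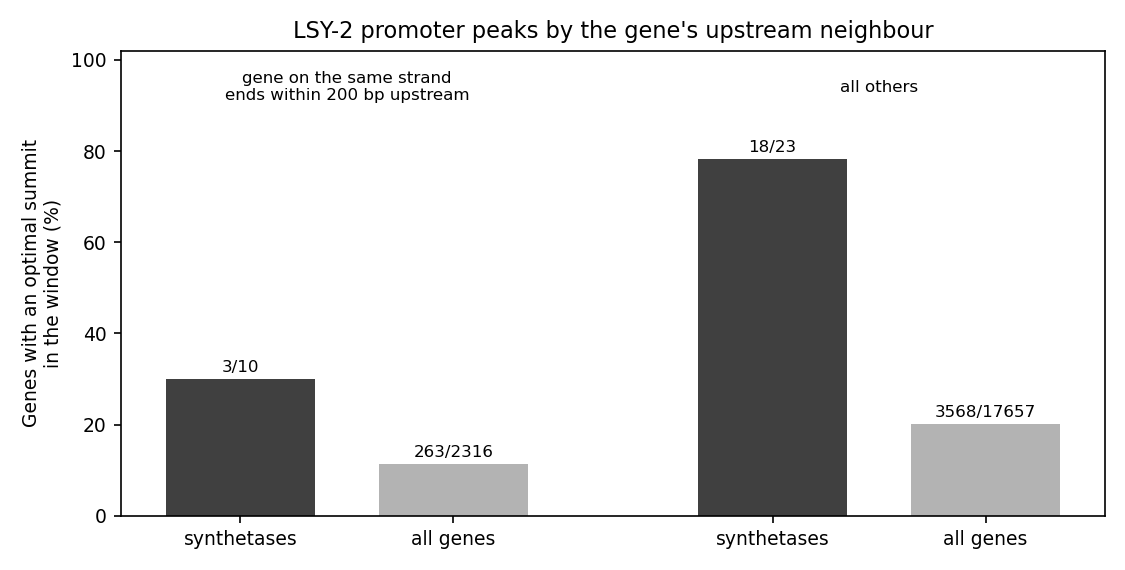
Share of genes with an optimal LSY-2 summit in the promoter window, in percent, for synthetase genes (dark) and all protein-coding genes (light), by whether a gene on the same strand ends at most 200 bp upstream. Synthetase genes behind such a neighbour are bound in 3 of 10 cases and the others in 18 of 23.

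For the 7 genes that lay behind such a neighbour and had no peak, the first gene of the run of closely spaced genes was examined as well. It was bound in 4 cases, beside 43.0% of all genes of this kind, which is of the same order. These were ZK524.4 ahead of lars-2 (strongest peak 142), Y66D12A.21 ahead of nars-2 (104), C29H12.2 ahead of rars-2 (72.2) and mars-2 ahead of yars-1 (192). The synthetase genes mars-2 and yars-1 thus follow each other on chromosome I, with mars-2 bound at its 5′ end and the 5′ end of yars-1 9793 bp farther on with no summit near it. The first genes ahead of dars-2 (pold-1), gars-1 (T10F2.2) and iars-2 (fath-1) had no peak, although C25A1.16, which lies between fath-1 and iars-2, did. The files do not show which of these runs are operons.

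A list of other tRNA pathway genes had peaks about as often as the synthetases, but the share depended on the role of the genes. All 7 charged tRNA carriers were bound, but 7 of 16 genes for maturation, export and modification and 2 of 3 for amino acid starvation. The list was chosen with earlier results of these data known, so its total reflects the mix of roles in it. Of a list of 26 genes whose products carry, mature or sense tRNA, 16 (61.5%) were bound, beside 19.2% of all genes, with a median score of 286. When each peak was given only to the nearest 5′ end, 12 of the 26 (46.2%) were bound, beside 14.5% of all genes. The peaks of eef-1A.1, tufm-2, elpc-4 and xpo-3 were nearer to another gene and did not count then. In the promoter window, all 7 genes of charged tRNA carriers were bound. The cytosolic elongation factor genes eef-1A.1 and eef-1A.2, which bring charged tRNA to the ribosome, had scores of 6561 and 525. The genes eef-1B.1, eef-1B.2 and eef-1G, for the exchange factor that recharges them, had 774, 264 and 977. The mitochondrial carrier genes tufm-1 and tufm-2 had 1302 and 294. The scores of eef-1A.1, at 3616 in replicate 1 and 2960 in replicate 2, were above those of every synthetase.

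Of 16 genes for tRNA maturation, export and modification, 7 were bound, beside 19.2% of all protein-coding genes. They were the tRNA ligase gene rtcb-1 (204), the exportin gene xpo-3 (192), the Elongator genes elpc-1 (111), elpc-2 (127) and elpc-4 (213), the pseudouridine synthase gene pus-1 (278) and mtcu-2 (331). The peak of elpc-1 had no summit within 200 bp in the relaxed list of replicate 2. The genes elac-2, tut-1, elpc-3, tgt-1, tgt-2, nsun-2, alkb-8, mttu-1 and mtcu-1 had no optimal summit in the window. Of 3 genes that respond to uncharged tRNA or amino acid starvation, 2 were bound, beside the same 19.2%. These were gcn-1 (472) and the transcription factor gene atf-4 (209), while the kinase gene gcn-2 was not bound.

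The 2 synthetase genes outside the naming rule were split. The gene glp-4, whose product charges tRNA with valine, had a peak with a score of 324 and a summit 455 bp upstream, and prx-10 had none. For valine both genes, vars-1 and glp-4, were thus bound, as were both genes for alanine, serine and methionine. For tryptophan neither wars-1 nor prx-10 was. For arginine, leucine, isoleucine, asparagine and aspartate the cytosolic gene was bound and the mitochondrial one was not. Of these cytosolic genes, rars-1, iars-1, nars-1 and dars-1 had summits nearer to another gene, and lars-1 had the weakest peak of all members. Their mitochondrial partners all lay close behind a gene on the same strand. For glutamate, proline and tyrosine it was the mitochondrial gene alone that was bound. For phenylalanine both cytosolic subunit genes were bound and the mitochondrial gene was not.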

How the data were processed

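According to the lists of files deposited beside the data, the authors made relaxed peak lists against a control for each of 2 replicates and for both together, and derived the optimal list from them by the irreproducible discovery rate procedure. The peak score in each list is the authors' deposited value; for the caller, aligner and threshold nothing is given in the sources used here. Reads of the control were not analysed here, and the ce10 lists were not used.

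Peaks on ce11 (assembly WBcel235) were joined to Ensembl release 115, with symbols from RefSeq matched by WormBase identifier for 46881 of 46926 genes and otherwise by sequence name, as for mars-2. A gene's 5′ end was the outermost one. Summits matched between lists within 200 bp. The upstream neighbour was the protein-coding gene ending nearest before the 5′ end. The compartment followed the RefSeq product name, otherwise the gene number, with vars-1 mitochondrial and fars-1 and fars-3 cytosolic. All members were named. The gene hoe-1 of the tRNA list is elac-2 in RefSeq. The members and lists were chosen with earlier results of these data known. Window assignment was tested on summits placed at known positions. Python 3.11.15, pandas 2.3.3, scipy 1.17.1 and Biopython 1.88 were used. Positions are counted from 1.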

Additional observations from a re-analysis of the deposited data

How the results depend on the processing

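Of 74 alternative values for 13 main results, 61 stayed within 1.5 times of the main count, for a median within 1 SD between the replicates or, for motif shares, within the 95% exact (Clopper-Pearson) binomial interval, which covers counting error only. That interval is wide at 21 peaks: the GAGAGA share was 33.3% within 200 bp of the summit, against 19.0% within 50 bp. The count of 21 bound synthetases lay between 14 and 23 under 9 alternatives, and 8 genes (aars-1, aars-2, ears-2, kars-1, mars-1, mars-2, sars-2 and vars-1) were bound under every one of them. When each peak was given only to the nearest 5′ end, 14 members were bound (42.4%), beside 14.5% of all genes, and the cytosolic count was 4 of 14, because 6 of the shared peaks were nearer to the neighbour, while the mitochondrial count was 7 of 13. The single-gene count was 2 of 6 with the upper 50% of scores and 2 of 6 with the window of 500 bp upstream to 100 bp downstream. The median score was 231 with the upper 50% of scores, 200 with peaks found in both replicates and 184 with the narrower window. It was 92.8 without replicate 1 and 97.3 without replicate 2, where scores are those of 1 library. The median summit distance was -271 bp with the upper 50% of scores, -150 bp with the narrower window and -271 bp with the window of 2000 bp upstream to 500 bp downstream. It lay between -191 and -182 bp when 1 replicate was left out. The count of bound members behind a gene on the same strand was 1 of 3 with a gap of at most 100 bp (33.3%, beside 11.6% of all such genes) and 5 of 12 with at most 500 bp (41.7%, beside 14.2%), alternatives chosen after seeing the data. The other members were bound in 66.7% and 76.2% of cases at these gaps, so the contrast was smaller than the 30.0% against 78.3% at 200 bp. Of the members without a peak, 2 lay behind such a gene and 10 did not with a gap of at most 100 bp. With at most 500 bp, 7 did and 5 did not. No paired analysis was possible because there is 1 group. The depth of the libraries is unknown, so a gene without a summit may lie below what these lists can show.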
